A study of Mus musculus with 6 samples.

Results

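The axon guidance families were examined as a set of 66 genes out of the 56980 listed in the count table of bone marrow (BM) MSCs. The rule that picks the genes uses their symbols and no measured value, although the families were proposed with earlier results of these data known. They comprised 20 semaphorins, 9 plexins, 14 Eph receptors, 8 ephrins, 4 Robo receptors, 3 Slit ligands, 4 netrins and 4 Unc5 receptors, that is 35 ligands and 31 receptors. RNA-Seq covered 2 groups of 3 samples, TranspCtrl and TranspExer, which the sample titles call FMT-Ctrl and FMT-Exer. All recipients were female mice ovariectomised (OVX) at 8 weeks of age and treated with antibiotics to deplete their gut microbiota, and the strain is not given in the sources used here. They then received fecal microbiota transplantation (FMT) for 8 weeks. The paper describes the donors as osteoporotic OVX mice, sedentary for the TranspCtrl group and trained on a treadmill for the TranspExer group. The marrow of the recipients was flushed and cultured for 7 days with washes. No sorting step is described, so the MSCs are an adherent population and not a purified one. The comparison asks how the MSC transcriptome differs between recipients of the 2 kinds of microbiota. The labels do not say whether each sample came from a separate animal, so p-values measure only the spread between these samples.

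Total counts ranged from 17647682 to 21319228 per sample, and 3 counts, the floor used here, lay between 0.14 and 0.174 CPM (counts scaled to a library's total after TMM adjustment). That floor reflects counting error alone. The labelled cell type was checked against marker lists. All 17 marrow stroma markers, among them *Cxcl12* and *Lepr*, passed the low-count filter, with a summed level of 14710 to 23000 CPM in the TranspCtrl group and 14100 to 15340 CPM in the TranspExer group. Markers of other marrow cells were also well detected, with macrophage markers at 9690 to 14820 CPM and 7971 to 8647 CPM in the same order of groups. In such bulk RNA, fewer cells of a type and less RNA per cell cannot be told apart. TranspCtrl replicate 1 stood apart. Over the tested guidance genes, its distance to TranspCtrl replicates 2 and 3 in log2 CPM was 3.62 and 3.34, against 1.37 between those samples and 1.11 to 1.76 among TranspExer samples. Distances between the groups were larger, from 6.08 to 7.80. TranspCtrl replicate 1 was the lowest of its group for 45 of the 57 tested guidance genes and the highest for 8, so the counts of calls are given with and without it.

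Axon guidance molecules are secreted or membrane-bound cues and their receptors, first studied in growing axons and also used by blood vessels, stromal cells, bone cells and leukocytes to steer migration, adhesion and cell spacing. Semaphorins signal through plexins, often with neuropilins as co-receptors. Ephrins bind Eph receptor tyrosine kinases on touching cells and can signal back into the cell that carries them. Slits bind Robo receptors, and netrins bind Unc5 receptors, neogenin and DCC. In marrow these families are known from endothelium, where Robo4, Unc5b, plexin D1 and ephrin-B2 with EphB4 shape vessels, and from the osteoblast and osteoclast lineages, where Sema3A, Sema4D and ephrin-B2 with EphB4 take part in coupling bone formation and resorption.

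More guidance genes rose than fell in the TranspExer group, and the largest increases were those of the netrin *Ntn4* and the receptor *Robo4*. A gene was called when edgeR's quasi-likelihood test gave an adjusted p under 0.05 over all 15190 genes tested, and was said to pass both thresholds when the fold change was also at least 2. Of the 66 guidance genes, 57 had enough counts to be tested. Both thresholds were passed by 9 genes that were higher in TranspExer, 15.8% of those tested, where 3.5% of all tested genes were called in that direction. They were passed by 6 genes that were lower, 10.5% of those tested, where the share of all tested genes was 5.28%. At the adjusted p alone, 23 guidance genes were higher (40.4%, against 16.6% of all tested genes) and 12 were lower (21.1%, against 15.5%). TranspCtrl and TranspExer samples were fully separated for 42 of the 57 genes (73.7%), 28 with all TranspExer samples above and 14 with all below, where 52.4% of all tested genes were separated in either direction. The median log2 fold change was 0.22 over the tested guidance genes and -0.02 over all tested genes. Receptors had a median of 0.33, with 12 of 25 tested higher and 4 lower at the adjusted p, and ligands had a median of 0.09, with 11 of 32 higher and 8 lower. Without TranspCtrl replicate 1, 9 genes were higher past both thresholds (15.8%, against 3.27% of all genes tested in that fit) and 5 lower (8.77%, against 5.01%). At the adjusted p alone in that fit, 24 were higher (42.1%, against 22.1%) and 14 lower (24.6%, against 19.6%). With other samples left out, the counts at the adjusted p alone were smaller for guidance genes and for all genes. Without TranspExer replicate 3, 13 guidance genes were higher (22.4%, against 8.55%). Without TranspExer replicate 1 or 2, 6 were lower (10.3%, against 9.06% and 8.48%), and without TranspCtrl replicate 3, 7 were lower (12.3%, against 12%), so the share of lower guidance genes was then close to that of all genes. With scaling by library size only, all tested genes split into 2013 higher and 2962 lower at the adjusted p, and with upper-quartile scaling into 2052 and 2901, against 2523 and 2361 with the TMM scaling used here. With library size only, 20 guidance genes were higher (35.1%, against 13.3% of all genes) and 12 lower (21.1%, against 19.5%). Past both thresholds with library size only, 9 were higher (15.8%, against 2.93%) and 8 lower (14%, against 6.19%). Without TranspExer replicate 3, 8 were higher (13.8%, against 2.86%) and 8 lower (13.8%, against 4.33%) past both thresholds. Without TranspCtrl replicate 3, these numbers were 11 higher (19.3%, against 3.69%) and 5 lower (8.77%, against 5.07%).

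**Figure D1:**
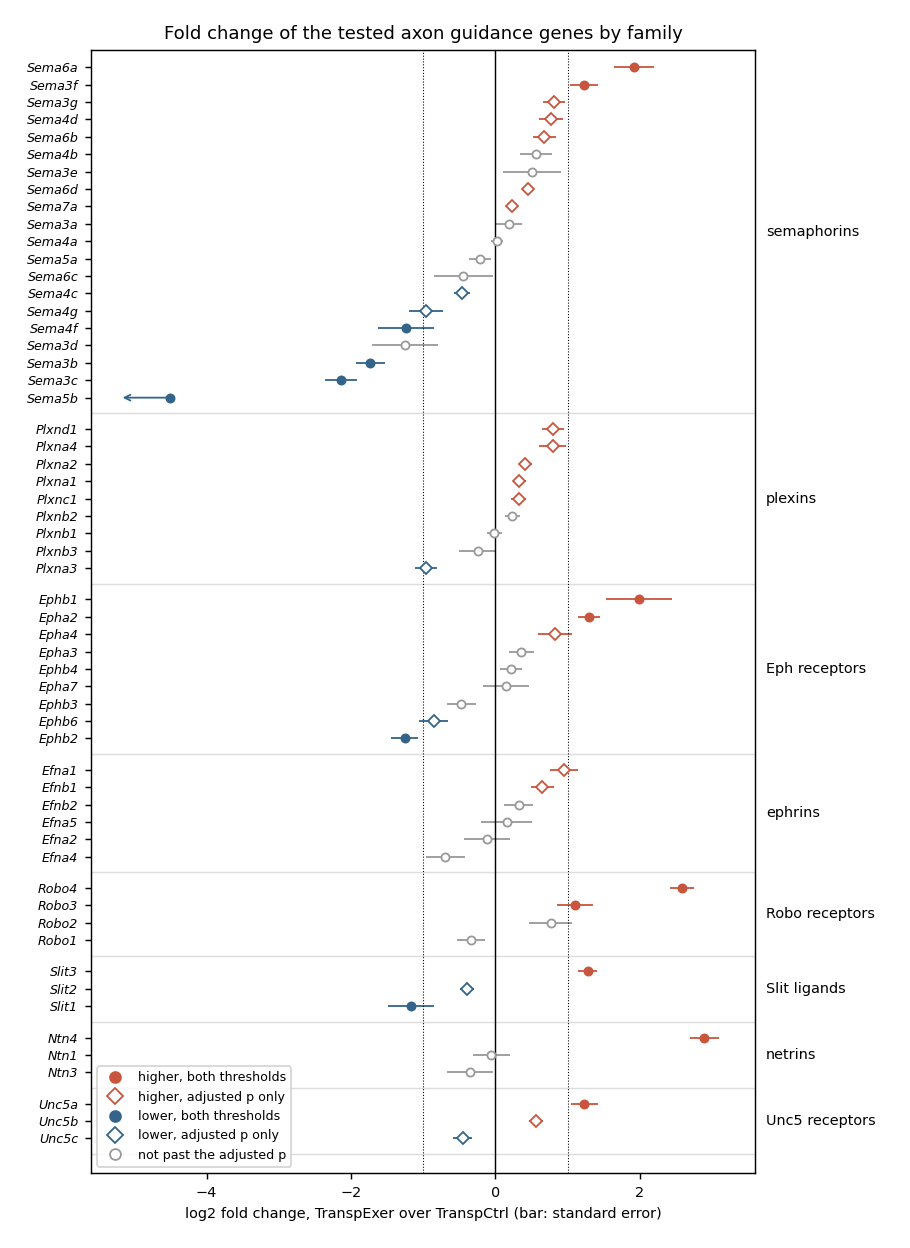
The horizontal axis gives the log2 fold change of TranspExer over TranspCtrl for each of the 57 tested guidance genes, grouped by family, with the standard error as a bar (n = 3 per group). Filled circles passed both thresholds, diamonds the adjusted p alone and grey circles neither, dotted lines mark a fold change of 2 in either direction, and *Sema5b* is drawn at its bound with an arrow. *Ntn4* (2.90) and *Robo4* (2.59) lie farthest to the right, and the semaphorins spread to both sides.

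To show the regulatory sequence beside the called genes, the promoters of *Robo4* and *Epha2* are given. They are 2 of the 4 genes with the largest fold change among those past both thresholds whose mean was 5 CPM or more, and the others, *Ntn4* and *Slit3*, start farther upstream in GENCODE M21 than in RefSeq, so that no promoter of theirs is shown. Windows are the 250 bases before the RefSeq start in GRCm38.p6, cut where the GENCODE gene begins. For *Robo4*, on the plus strand, 175 bases at chr9:37401722-37401896 remained, and for *Epha2*, also on the plus strand, all 250 bases at chr4:141300971-141301220. Capitals mark matches to the motifs searched on both strands.
Robo4: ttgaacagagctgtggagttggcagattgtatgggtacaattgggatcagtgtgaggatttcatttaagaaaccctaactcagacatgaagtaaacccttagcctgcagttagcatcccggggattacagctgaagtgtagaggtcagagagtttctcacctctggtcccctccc
Epha2: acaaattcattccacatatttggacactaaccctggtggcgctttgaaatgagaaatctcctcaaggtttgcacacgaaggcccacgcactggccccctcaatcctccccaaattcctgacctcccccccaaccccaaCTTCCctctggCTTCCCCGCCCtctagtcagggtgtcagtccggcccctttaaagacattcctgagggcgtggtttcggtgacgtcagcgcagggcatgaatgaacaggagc
The motifs were GGAAG (the core bound by ETS factors), GGGCGG (the GC box), TATAAA (the TATA box) and TGANTCA (the AP-1 site), none of which overlaps another in the printed windows. The *Epha2* window held 2 matches to the ETS core and 1 to the GC box, all on the reverse strand, and the shortened *Robo4* window held none of the 4 motifs. RefSeq gave 73 such windows for 57 of the 66 guidance genes. The GC box was present in 69.9% of them and in 32.7% of the 32851 windows of all genes. For the ETS core these shares were 68.5% and 64.1%, for the TATA box 2.74% and 12.4%, and for the AP-1 site 4.11% and 6.75%. Among genes past both thresholds, the ETS core was found in 5 of 7 windows of higher genes and 2 of 4 windows of lower genes, and the GC box in 5 of 7 and 1 of 4. A match is a string of letters and not a bound site.

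**Figure D2:**
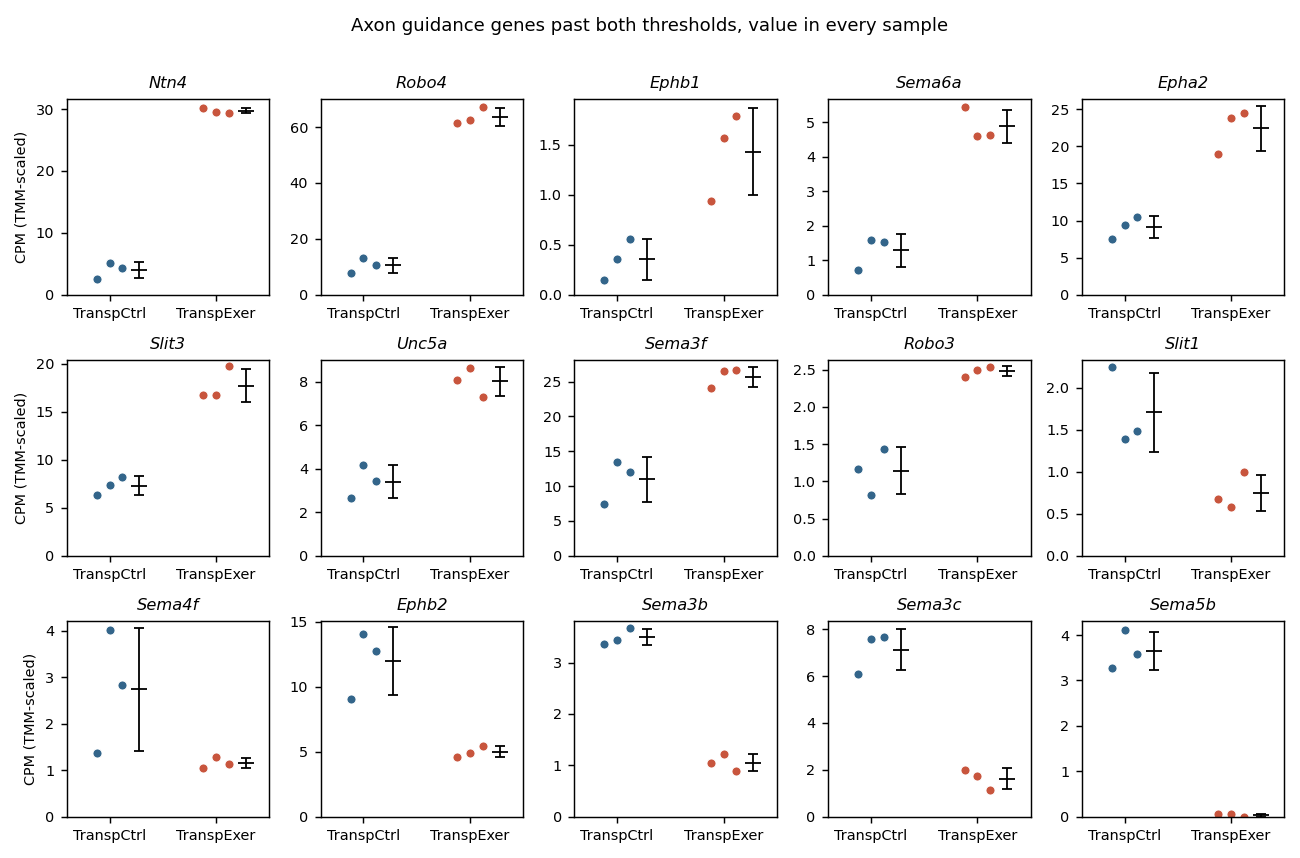
Each panel gives 1 of the 15 guidance genes past both thresholds, in order of fold change, with TMM-scaled CPM on the vertical axis starting at 0. Points are single samples and the black bar is the mean ± SD of 3 samples. The groups do not overlap in any panel, and TranspCtrl replicate 1, the leftmost point, is the lowest of its group in the panels of *Ntn4* and *Robo4*.

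Netrins and Unc5 receptors were followed first. *Ntn4* (chr10:93640681-93747207 in GRCm38, plus strand, as for the other genes given with coordinates) encodes netrin-4, a laminin-like basement membrane protein made by vascular cells that binds laminin and can disturb its network. Its counts were 54, 99 and 92 in TranspCtrl replicates 1 to 3, and 578, 509 and 592 in TranspExer replicates 1 to 3. All TranspExer samples lay far above all TranspCtrl samples, and the level rose from 4.00 ± 1.25 to 29.7 ± 0.44 CPM (SD, n = 3). The log2 fold change was 2.90 with an SE of 0.20 and an adjusted p of 7.57e-05 by edgeR, a 7.44-fold increase. Without TranspCtrl replicate 1 it was 2.67. The other netrins did not pass the test, and the median of the 3 tested netrins was -0.05. *Ntn1*, the classic diffusible netrin, differed by -0.05 on the log2 scale, short of the threshold (adjusted p = 0.883), and *Ntn3* by -0.35 (adjusted p = 0.439). *Ntn5* reached 1 count at most and was not tested. In TPM, a level per length, *Ntn4* made up 58.1% ± 3.52 of the summed netrin level in TranspCtrl samples and 91.7% ± 0.33 in TranspExer samples.

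Of the Unc5 receptors, *Unc5a* passed both thresholds. Its counts were 54, 81 and 74 in TranspCtrl samples and 155, 149 and 147 in TranspExer samples, so every TranspExer sample had more than any TranspCtrl sample. The log2 fold change was 1.23 (SE 0.18, adjusted p = 0.00226). Its exons share 34 bases with those of *Hk3*, a hexokinase gene on the opposite strand with a mean of 3357 counts against 110 for *Unc5a*, and whether the counting used strand is not given, so some of these reads may belong to *Hk3*. *Unc5b*, the endothelial netrin receptor that also binds Robo4, held the highest level of the family, 20.9 TPM in TranspCtrl and 30.2 TPM in TranspExer. It rose by 0.57 on the log2 scale (SE 0.10, adjusted p = 0.00449). *Unc5c* moved in the other direction and fell by 0.45 (SE 0.13, adjusted p = 0.0326). Its call was lost with any sample other than TranspCtrl replicate 1 left out, with adjusted p-values from 0.0715 (without TranspExer replicate 3) to 0.105 (without TranspExer replicate 1). The ratio of *Unc5b* to *Unc5c* per length was 3.48 ± 0.26 in TranspCtrl and 7.02 ± 0.16 in TranspExer samples. *Unc5d* reached 4 counts at most and was not tested. Of the other netrin receptors, *Neo1*, which encodes neogenin, fell by 0.39 (SE 0.10, adjusted p = 0.0209), and *Dcc* reached 1 count at most.

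Robo receptors and Slit ligands each changed in composition. *Robo4* (chr9:37401897-37415115) encodes the endothelial Robo receptor, which steadies vessels and helps to anchor hematopoietic stem cells in the marrow. Its counts were 161, 256 and 232 in TranspCtrl samples and 1171, 1073 and 1350 in TranspExer samples. The lowest TranspExer sample exceeded the highest TranspCtrl sample several times over, and the level rose from 10.6 ± 2.65 to 63.6 ± 3.08 CPM. The log2 fold change was 2.59 (SE 0.17, adjusted p = 6.19e-05), a 6.00-fold increase, and 2.41 without TranspCtrl replicate 1. *Robo3*, known for its part in midline crossing of axons, had 24, 16 and 31 counts in TranspCtrl samples and 46, 43 and 51 in TranspExer samples. These counts are low but did not overlap, and the log2 fold change was 1.10 (SE 0.25, adjusted p = 0.0126). Without TranspCtrl replicate 2 it was 0.92 (adjusted p = 0.0339), under the fold threshold, and without TranspExer replicate 3 it was 1.08 (adjusted p = 0.0534). *Robo3* lies on the minus strand of chromosome 9 and ends 553 bases from the end of *Robo4* on the plus strand, without shared exons in the annotation. *Robo1*, the widely expressed Slit receptor, differed by -0.34 on the log2 scale, short of the threshold (adjusted p = 0.210). Without TranspCtrl replicate 1 the value for *Robo1* was -0.55 and passed the test (adjusted p = 0.000326). *Robo2* had 10 to 22 counts per sample and a log2 fold change of 0.77 (adjusted p = 0.0813). *Robo4* made up 48.9% ± 3.04 of the summed Robo level per length in TranspCtrl and 86.0% ± 0.41 in TranspExer samples, and the summed level went from 11.7 ± 2.85 to 39.1 ± 2.19 TPM.

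The 3 Slit genes, which encode large secreted ligands of Robo1 and Robo2, were all called, in differing directions. At the adjusted p, 1 was higher and 2 lower, where the shares of all tested genes were 16.6% and 15.5%. *Slit3*, a Slit known from bone cells and vessels (chr11:35121224-35708507), had 129, 144 and 177 counts in TranspCtrl samples and 319, 288 and 397 in TranspExer samples. The groups were well separated, and the log2 fold change was 1.28 (SE 0.13, adjusted p = 0.000454). *Slit2* fell by 0.40 on the log2 scale (SE 0.10, adjusted p = 0.0195). It missed the threshold without TranspCtrl replicate 2 (adjusted p = 0.0573) or 3 (adjusted p = 0.0576) and without TranspExer replicate 1 (adjusted p = 0.0705) or 3 (adjusted p = 0.0695). *Slit1*, known mainly from the nervous system, had 46, 27 and 32 counts in TranspCtrl samples and 13, 10 and 20 in TranspExer samples. Its log2 fold change was -1.17 (SE 0.32, adjusted p = 0.0273), and without TranspCtrl replicate 1, its highest sample, it was -0.92 and missed the threshold (adjusted p = 0.054). It also missed it without TranspExer replicate 1 (-1.10, adjusted p = 0.0955) or 2 (-1.03, adjusted p = 0.1). The summed Slit level per length overlapped between the groups, at 11.6 to 13.1 TPM in TranspCtrl and 12.7 to 14.7 TPM in TranspExer. Within that sum, *Slit2* made up 70.8% ± 1.46 in TranspCtrl and 47.5% ± 3.79 in TranspExer samples, and *Slit3* 23.5% ± 1.84 and 50.3% ± 3.24.

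The semaphorins were the largest family and moved in both directions. All 20 were tested, and 7 were higher and 6 lower at the adjusted p, where the shares of all tested genes were 16.6% and 15.5%. Past both thresholds, 2 were higher and 4 lower, where those shares were 3.5% and 5.28%. The median log2 fold change was 0.11. It was 0.012 without TranspCtrl replicate 1 and 0.022 with scaling by library size only. Among the secreted class 3, which act through neuropilins and A-type plexins, *Sema3f* was higher. It encodes a ligand of neuropilin-2 known to repel endothelial and tumor cells. Its counts were 151, 261 and 260 in TranspCtrl samples and 460, 455 and 535 in TranspExer samples. The groups did not overlap, although TranspCtrl replicate 1 was well below its fellow samples, and the log2 fold change was 1.23 (SE 0.20, adjusted p = 0.00306). Without that sample it was 1.01, close to the fold threshold.

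Other class 3 genes fell. *Sema3c*, a ligand of both neuropilins needed for the cardiac outflow tract (chr5:17574281-17730268), had 125, 148 and 165 counts in TranspCtrl samples and 38, 30 and 23 in TranspExer samples. No TranspExer sample came near the TranspCtrl range, and the gene fell by 2.13 on the log2 scale (SE 0.22, adjusted p = 0.000424), or 4.39-fold. *Sema3b*, known as a tumor suppressor, had 69, 67 and 79 counts in TranspCtrl samples and 20, 21 and 18 in TranspExer samples. It fell by 1.73 (SE 0.20, adjusted p = 0.000745), with little spread in either group. *Sema3b* and *Sema3f* are neighbours on chromosome 9, 72.3 kb apart on the same strand, and were called in opposite directions. *Sema3g*, an endothelial semaphorin, rose by 0.81 (SE 0.15, adjusted p = 0.00649). *Sema3a*, the founding class 3 ligand with a protective part in bone, had a log2 fold change of 0.19 (SE 0.18, adjusted p = 0.441). *Sema3d*, with 4 to 26 counts per sample, had a log2 fold change of -1.25 that missed the threshold (adjusted p = 0.0722). Without TranspExer replicate 3, its highest sample of that group, it was -2.07 and passed both thresholds (adjusted p = 0.0217). *Sema3e*, the ligand of plexin D1, was not called (0.50, adjusted p = 0.360). The ratio of *Sema3f* to *Sema3c* per length was 3.49 ± 0.65 in TranspCtrl and 38.8 ± 13.3 in TranspExer samples.

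*Sema5b*, a membrane semaphorin with thrombospondin repeats (chr16:35541145-35664732), had the deepest decrease of the tested guidance genes. It had 67, 80 and 77 counts in TranspCtrl samples and 1, 1 and 0 in TranspExer samples (adjusted p = 7.57e-05). Against a floor of 3 counts per library, it was at least 22.8-fold lower in TranspExer. The related *Sema5a* remained well detected in every sample, with 185 to 308 counts and a log2 fold change of -0.22 (adjusted p = 0.307). Without TranspCtrl replicate 1 the value for *Sema5a* was -0.36 and passed the test (adjusted p = 0.0169).

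Among class 4, membrane semaphorins that include immune and bone regulators, *Sema4d* had the highest level per length of the whole family. It is known from T cells and from osteoclasts, where it restrains osteoblasts through plexin B1. It stood at 79.0 TPM in TranspCtrl and 132.3 TPM in TranspExer samples, and it rose by 0.78 on the log2 scale (SE 0.17, adjusted p = 0.0108). *Sema4f* had 28, 78 and 61 counts in TranspCtrl samples and 20, 22 and 23 in TranspExer samples. TranspCtrl replicate 1 sat close to the TranspExer range, the log2 fold change was -1.24 (SE 0.39, adjusted p = 0.0418), and this adjusted p was the highest of the 15 genes past both thresholds. The call was lost without TranspCtrl replicate 2 (-0.86, adjusted p = 0.114) or 3 (-1.21, adjusted p = 0.0876), and without TranspExer replicate 1 (-1.18, adjusted p = 0.124), 2 (-1.32, adjusted p = 0.0966) or 3 (-1.24, adjusted p = 0.12). *Sema4g* fell by 0.96 (SE 0.24, adjusted p = 0.0186). It passed both thresholds with upper-quartile (-1.04) or library-size scaling (-1.05) and without TranspExer replicate 3 (-1.21), and lost the call without TranspCtrl replicate 3 (adjusted p = 0.0509) or TranspExer replicate 1 or 2 (adjusted p = 0.0699 and 0.0728). *Sema4c*, a ligand of plexin B2, fell by 0.46 (SE 0.11, adjusted p = 0.0138), a call lost without TranspExer replicate 1 (adjusted p = 0.0599) or 2 (adjusted p = 0.054). Its exons overlap those of D430040D24Rik on the opposite strand, with a mean of 13.2 counts against 255. Neither *Sema4a* (log2 fold change 0.02, adjusted p = 0.864) nor *Sema4b* (0.56, adjusted p = 0.081) was called. Without TranspCtrl replicate 1 the value for *Sema4b* was 0.32 and passed the test (adjusted p = 0.00351), and it also passed with DESeq2 (0.57, adjusted p = 0.0442) and without the low-count filter (0.55, adjusted p = 0.018).

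In class 6, membrane ligands of A-type plexins, *Sema6a* passed both thresholds. It had 15, 31 and 33 counts in TranspCtrl samples and 104, 79 and 93 in TranspExer samples. The groups were clearly apart and the log2 fold change was 1.92 (SE 0.28, adjusted p = 0.00188). *Sema6b* rose by 0.68 (SE 0.16, adjusted p = 0.0137), a call lost without TranspExer replicate 3 (adjusted p = 0.057). *Sema6d* rose by 0.45 (SE 0.08, adjusted p = 0.00427), whereas *Sema6c*, with 12 to 36 counts, differed by -0.44 on the log2 scale, short of the threshold (adjusted p = 0.432). *Sema7a*, the membrane-anchored ligand of plexin C1 and integrins, differed by 0.22 (SE 0.07, adjusted p = 0.0376). That call held in only 2 of 12 alternative fits, and it was lost, for example, with library-size scaling (0.14, adjusted p = 0.163) and with DESeq2 (0.23, adjusted p = 0.0532).

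The plexins are the signaling receptors of semaphorins. None of the 9 passed both thresholds, which 3.5% of all tested genes passed as higher and 5.28% as lower. At the adjusted p, 5 were higher and 1 lower, where the shares of all tested genes were 16.6% and 15.5%. The median log2 fold change was 0.32. *Plxnd1*, the plexin of endothelium and its sprouting front, rose by 0.79 (SE 0.15, adjusted p = 0.00629) and its level went from 65.5 to 111 TPM. *Plxna4* rose by 0.79 (SE 0.19, adjusted p = 0.0164) at a far lower level, 0.85 TPM in TranspCtrl and 1.44 TPM in TranspExer, and lost the call without TranspExer replicate 1 (adjusted p = 0.0582) or 3 (adjusted p = 0.0709). *Plxna2* rose by 0.42 (SE 0.09, adjusted p = 0.0118) and lost the call without TranspExer replicate 2 (adjusted p = 0.0532) or 3 (adjusted p = 0.0575). *Plxna1*, which in osteoclasts partners with Sema6D, rose by 0.33 (SE 0.09, adjusted p = 0.0267). That call was lost with library-size scaling (adjusted p = 0.0521) and without TranspCtrl replicate 3 (adjusted p = 0.0834), TranspExer replicate 2 (adjusted p = 0.109) or TranspExer replicate 3 (adjusted p = 0.107). *Plxnc1*, the receptor of Sema7A, differed by 0.32 (SE 0.10, adjusted p = 0.0468), a call that held in 5 of 12 alternative fits. *Plxna3* fell by 0.96 (SE 0.15, adjusted p = 0.00307), close to the fold threshold. It passed both thresholds in 5 alternative fits, with upper-quartile (-1.04) or library-size scaling (-1.05) and without TranspCtrl replicate 2 (-1.01), TranspExer replicate 1 (-1.03) or TranspExer replicate 3 (-1.04). *Plxnb2*, the most abundant plexin per length, had a log2 fold change of 0.23 (SE 0.10, adjusted p = 0.117), at 118 TPM in TranspCtrl and 136 TPM in TranspExer. Neither *Plxnb1* (log2 fold change -0.01, adjusted p = 0.926) nor *Plxnb3* (-0.24, adjusted p = 0.484) was called. Of the co-receptors, *Nrp1* rose by 0.58 (SE 0.09, adjusted p = 0.00243), while *Nrp2* had a log2 fold change of -0.15 (SE 0.08, adjusted p = 0.171). Their ratio per length was 0.95 ± 0.04 in TranspCtrl and 1.59 ± 0.02 in TranspExer samples.

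Among the Eph receptors, *Epha2*, a receptor of endothelial and epithelial cells whose main ligand is ephrin-A1, rose (chr4:141301240-141329384). Its promoter is printed above. It had 154, 183 and 225 counts in TranspCtrl samples and 362, 410 and 494 in TranspExer samples. The groups were apart, and the log2 fold change was 1.30 (SE 0.16, adjusted p = 0.000808). *Ephb1* had only 3, 7 and 12 counts in TranspCtrl samples and 18, 27 and 36 in TranspExer samples. These counts did not overlap, the mean over all samples was the lowest of the 15 genes past both thresholds, and the log2 fold change was 1.99 (SE 0.46, adjusted p = 0.0138). It missed the threshold without TranspExer replicate 2 (1.92, adjusted p = 0.0544) or 3 (1.78, adjusted p = 0.0647). *Ephb2*, a receptor of B-type ephrins, went the other way, with 185, 274 and 275 counts in TranspCtrl samples and 88, 85 and 110 in TranspExer samples. It fell by 1.25 on the log2 scale (SE 0.18, adjusted p = 0.00208), or 2.39-fold, and *Ephb6*, a receptor without kinase activity, fell by 0.85 (SE 0.20, adjusted p = 0.0156). The *Ephb6* call was lost without TranspCtrl replicate 3 (adjusted p = 0.0502) or TranspExer replicate 2 or 3 (adjusted p = 0.0579 and 0.0612). *Epha4* rose by 0.83 (SE 0.23, adjusted p = 0.0295). It passed both thresholds without TranspCtrl replicate 3 (1.05, adjusted p = 0.0236) and lost the call without TranspCtrl replicate 2 (adjusted p = 0.0766) or TranspExer replicate 1, 2 or 3 (adjusted p = 0.0885, 0.0614 and 0.108).

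*Ephb4*, the venous receptor of ephrin-B2, was the most abundant Eph receptor per length and had a log2 fold change of 0.21 (SE 0.15, adjusted p = 0.315). *Epha3*, *Epha7* and *Ephb3* were not called, with log2 fold changes of 0.36, 0.15 and -0.47. Without TranspCtrl replicate 1 the value for *Ephb3* was -0.59 and passed the test (adjusted p = 0.0196). *Epha2* made up 15.6% ± 0.91 of the summed Eph level per length in TranspCtrl and 32.3% ± 2.71 in TranspExer samples, and *Ephb2* 16.5% ± 1.07 and 5.87% ± 0.14. The summed level itself overlapped between the groups, at 24.9 to 35.1 TPM in TranspCtrl and 33.4 to 39.1 TPM in TranspExer. The other 5 Eph receptors were not tested. *Epha1* reached 13 counts, *Epha5* reached 2, *Epha6* reached 1, and *Epha8* and *Epha10* had 0 in every sample.

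Of the ephrins, 6 of 8 were tested, and 2 were higher and none lower at the adjusted p (16.6% and 15.5% of all tested genes). None passed both thresholds, which 3.5% of all tested genes passed as higher and 5.28% as lower. *Efna1*, the ligand of EphA2, rose by 0.95 (SE 0.19, adjusted p = 0.00836), and passed both thresholds without TranspCtrl replicate 3 (1.13) or TranspExer replicate 3 (1.07). *Efnb1*, the most abundant ephrin at 45.2 TPM in TranspCtrl and 69.4 TPM in TranspExer and a regulator of osteoblast differentiation, rose by 0.65 (SE 0.16, adjusted p = 0.0188). The *Efnb1* call was lost with any TranspExer sample left out (adjusted p = 0.0611, 0.0588 and 0.0688 without replicates 1, 2 and 3). *Efnb2*, the arterial ephrin, differed by 0.32 on the log2 scale, short of the threshold (adjusted p = 0.246), *Efna2* by -0.11, *Efna4* by -0.70 and *Efna5* by 0.15, none of them called. The median of the family was 0.24 and became -0.05 without TranspCtrl replicate 1. *Efna3* and *Efnb3* reached 7 and 12 counts and were not tested. *Efna1* and *Efna4* lie 52.2 kb apart on chromosome 3, with *Efna3* between them.

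**Figure D3:**
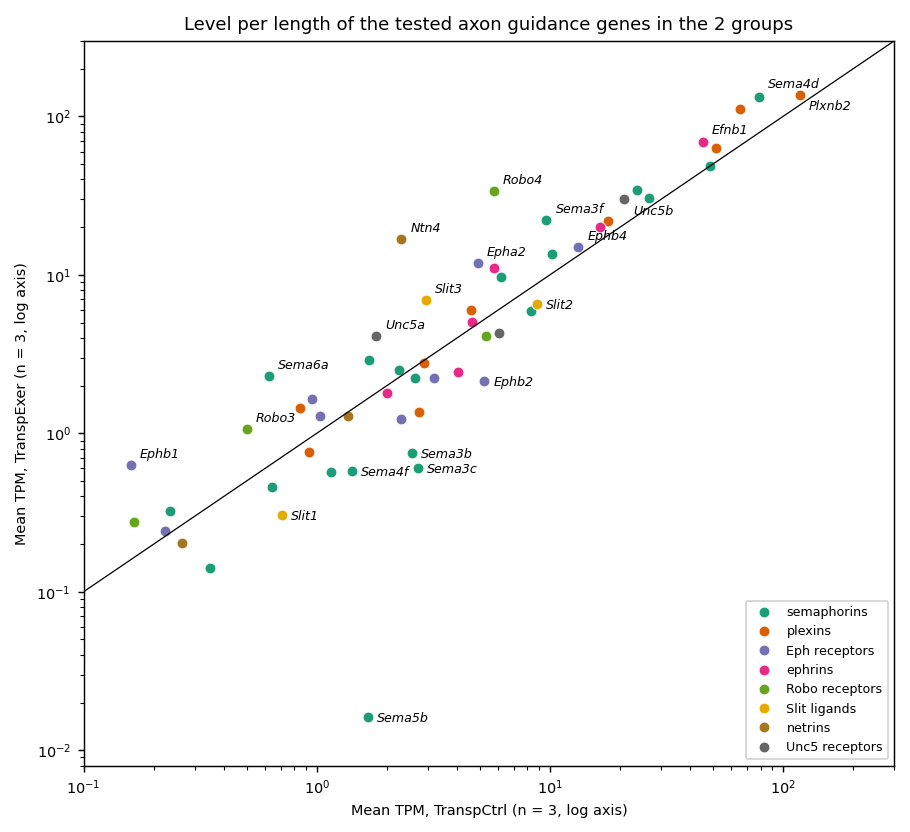
Mean TPM in TranspCtrl (horizontal) is plotted against mean TPM in TranspExer (vertical), both on log axes with n = 3, for the 57 tested guidance genes, colored by family. The line marks equal levels, and genes past both thresholds and the most abundant gene of each family are named. *Plxnb2*, *Sema4d* and *Efnb1* lie at the upper end near the line, *Robo4* and *Ntn4* well above it, and *Sema5b* far below it at 0.016 TPM in TranspExer.

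By level per length, plexins and semaphorins were the most abundant families. The summed plexin level was 265 ± 31.6 TPM in TranspCtrl and 344 ± 27.5 TPM in TranspExer, and that of semaphorins 230 ± 36.9 and 310 ± 15.7 TPM. The ephrins followed with 78.3 ± 19.4 and 110 ± 1.65 TPM. Eph receptors at 31.5 ± 5.72 and 36.4 ± 2.88 TPM, and Unc5 receptors at 28.7 ± 3.30 and 38.6 ± 3.18 TPM, were similar to each other. In TranspCtrl samples, the Robo family (11.7 ± 2.85 TPM) and the Slit family (12.5 ± 0.81 TPM) overlapped in level. In TranspExer samples, Robo receptors overlapped in level with the Unc5 and Eph families, while Slit ligands were at 13.8 ± 1.04 TPM. Netrins were the lowest family in TranspCtrl, at 3.96 ± 1.18 TPM, and in TranspExer they lay above the Slit family, at 18.3 ± 0.08 TPM.

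Ligands were also placed beside their receptors. In the EphA2 and ephrin-A1 pair, both genes were higher at the adjusted p, and in TranspExer both stood at a similar level per length, 11.8 TPM for *Epha2* and 10.97 TPM for *Efna1*. In the EphB2 and ephrin-B1 pair, the receptor fell and the ligand rose, the latter a call that did not hold with TranspExer samples left out. EphB4 and ephrin-B2 were not called on either side. *Plxna2* and *Sema6a* were both higher, as were *Plxna1* and *Sema6d*, although both plexin calls were lost in some alternative fits. For plexin C1 and Sema7A, the log2 fold changes were 0.32 and 0.22, and neither call held across the alternative fits. Sema4D rose while its receptor gene *Plxnb1* (2.89 TPM in TranspCtrl and 2.80 TPM in TranspExer) was not called. *Plxnd1* rose, and the gene of its ligand Sema3E, at 0.23 TPM in TranspCtrl and 0.32 TPM in TranspExer, was not called. The neuropilin-2 ligand genes *Sema3f* and *Sema3c* were called in opposite directions while *Nrp2*, at 121 and 106 TPM, was not called. *Robo4* and *Unc5b*, whose proteins bind each other between cells, both rose, and their levels were 5.75 and 20.9 TPM in TranspCtrl and 33.7 and 30.2 TPM in TranspExer.

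Further genes of the guidance pathways were counted from lists that were not drawn from the families above. Of 21 other receptors and co-receptors, 15 were tested, 6 were higher (40%, against 16.6% of all tested genes) and 2 lower (13.3%, against 15.5%) at the adjusted p, and 3 passed both thresholds. *Kdr*, the main VEGF receptor of endothelium and a partner of neuropilin-1, is also in the endothelial marker list and rose by 1.54 on the log2 scale (SE 0.11, adjusted p = 7.57e-05). *Cd72*, a B cell and myeloid receptor of Sema4D, rose by 1.00 (SE 0.13, adjusted p = 0.00131). *Flrt3*, an adhesion receptor that binds Unc5 and Robo proteins, fell by 1.12 (SE 0.15, adjusted p = 0.00149). Of 17 other ligands and matrix partners, 16 were tested and none passed both thresholds. At the adjusted p, 2 were higher and 2 lower (12.5% each), near the 16.6% and 15.5% of all tested genes. Of 53 cytoplasmic effectors, 49 were tested, 14 were higher (28.6%) and 4 lower (8.16%) at the adjusted p, and 3 passed both thresholds, all higher. *Crmp1*, a collapsin response mediator acting downstream of Sema3A, rose by 1.83 (SE 0.16, adjusted p = 0.000207). *Evl*, an actin regulator of the Ena/VASP family, rose by 1.12 (SE 0.09, adjusted p = 0.000107). *Nck2*, an adaptor of Eph and ephrin signaling, rose by 1.11 (SE 0.19, adjusted p = 0.0043).

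The marker genes of several cell types moved between the same samples. Of all tested genes, 3.5% were higher and 5.28% lower past both thresholds, and 16.6% and 15.5% at the adjusted p. Of 21 endothelial markers, all tested, 20 were higher at the adjusted p, 16 of them past both thresholds, with a median log2 fold change of 1.53 and a summed level of 323 to 400 CPM in TranspCtrl and 1090 to 1149 CPM in TranspExer. Of 13 pericyte and smooth muscle markers, 12 were tested, 6 were higher and 1 lower past both thresholds, with a summed level of 2761 to 3183 and 2165 to 2344 CPM. Of 17 marrow stroma markers, 1 was higher and 10 were lower at the adjusted p, with a median of -0.47. Past both thresholds, 5 of them were lower (29.4%) and none higher. Of 13 B and plasma cell markers, 12 were tested and 7 were lower past both thresholds, with a summed level of 2017 to 2391 and 699 to 742 CPM. Megakaryocyte markers were higher past both thresholds in 6 of 8, with summed levels of 271 to 327 and 515 to 545 CPM, and neutrophil and granulocyte progenitor markers in 4 of 12, with none lower at that threshold and sums of 3269 to 4367 and 5800 to 6050 CPM. Of 13 macrophage markers, 3 were higher and 3 lower at the adjusted p, 2 of the latter past both thresholds, with a median of 0.07. T and NK cell markers, at a summed 75.8 to 77.6 and 88.0 to 95.6 CPM, were higher in 1 and lower in 2 of 12 past both thresholds. Of 13 neuron and glia markers, 5 were tested, with 1 higher and 2 lower at the adjusted p, 1 of the latter past both thresholds. Their summed level was 131 to 190 CPM in TranspCtrl and 126 to 142 CPM in TranspExer, almost all of it from *Ncam1*, *Mbp* and *Tubb3*, while 6 had 3 counts or fewer in every sample, among them *Snap25* with 0 throughout. Erythroid markers summed to under 1 CPM in every sample and none of the 8 was tested.

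**Figure D4:**
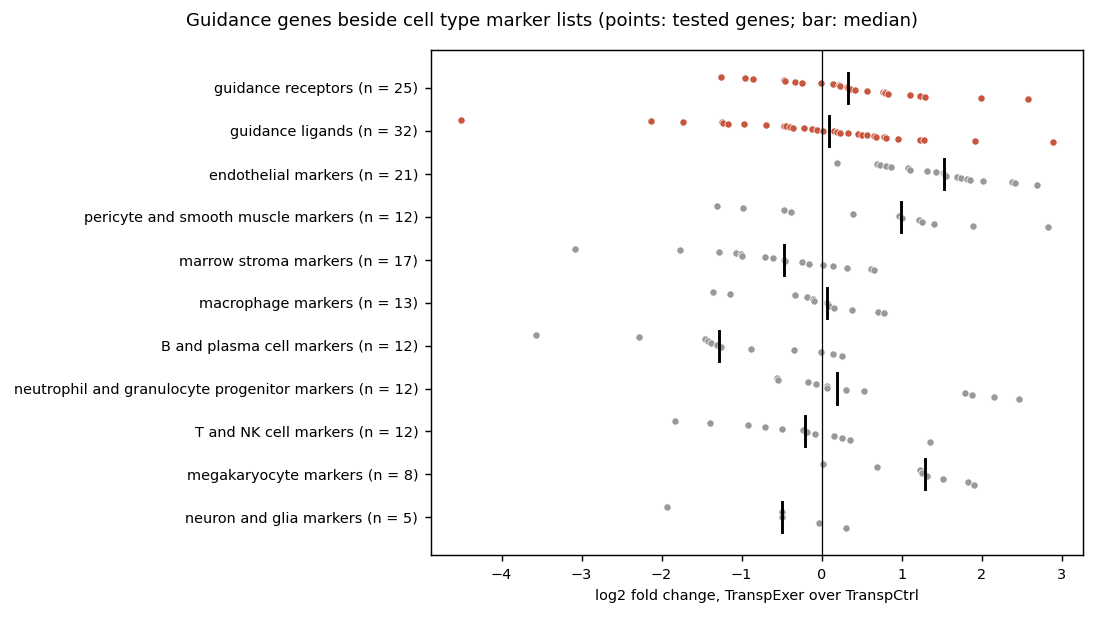
The horizontal axis gives the log2 fold change of TranspExer over TranspCtrl, with 1 point for each tested gene and a black bar at the median of each list. Guidance receptors and ligands are in red and cell type marker lists in grey, and *Sema5b* is placed at its bound. The endothelial list lies wholly to the right of 0 with a median of 1.53, whereas guidance receptors and ligands spread around medians of 0.33 and 0.09.

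Guidance genes of endothelium were therefore also set against the endothelial markers themselves, a choice made after their values were seen. Per 1000 counts of the 21 markers, *Robo4* had 28.5 ± 4.25 counts in TranspCtrl and 57.1 ± 1.09 in TranspExer samples, a 2.00-fold difference. *Ntn4* had 10.7 ± 2.32 and 26.8 ± 1.10, a 2.50-fold difference. No endothelial marker had a larger log2 fold change than *Ntn4*, and only *Sox17* had a larger one than *Robo4*. On the same scale, *Sema6a* overlapped between the groups, at 2.27 to 4.05 in TranspCtrl and 4.02 to 4.99 in TranspExer. *Plxnd1* went from 581 ± 64.0 to 335 ± 7.36, *Unc5b* from 159 ± 5.43 to 77.5 ± 4.43 and *Nrp1* from 537 ± 16.2 to 265 ± 5.10. These genes thus rose in CPM by less than the summed endothelial markers did. Of the 21 markers, 18 had a larger log2 fold change than *Plxnd1*, and 20 a larger one than *Unc5b* or *Nrp1*. *Epha2* and *Slit3* stood at 0.81 and 0.80 of their TranspCtrl values. *Sema3f*, *Unc5a* and *Robo3* stood at 0.786, 0.785 and 0.706 of theirs, and *Ephb1*, with few counts, at 1.36. On this scale *Sema3f*, *Robo3* and *Ephb1* overlapped between the groups. *Sema3b*, *Sema3c*, *Sema5b*, *Ephb2*, *Sema4f* and *Slit1* were lower in the group where B and plasma cell markers and many marrow stroma markers were also lower. Of the 17 stroma markers, 10 were lower at the adjusted p and 5 past both thresholds, although their summed level overlapped between the groups. The part of cell composition in the changes of these guidance genes was not tested.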

How the data were processed

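Samples of BM MSCs (3 TranspCtrl and 3 TranspExer) were grouped by their labels. The table deposited by the authors holds unnormalized expected counts (estimated read counts) and gene lengths. Their processing notes name mm10 as the genome build. The aligner, counting tool, annotation and use of strand are not given in the sources used here, and the labels and methods name different library kits. Counts were rounded, filtered (filterByExpr, which left 15190 genes), scaled by TMM and tested with edgeR 4.0.16 (quasi-likelihood, condition as the only term) in R 4.3.3, with Benjamini-Hochberg adjustment. Thresholds were an adjusted p of 0.05 and an absolute fold change of 2, as in the study's methods. TPM was computed from counts and the deposited lengths, without TMM. With 3 samples against 3, an exact permutation test of a single gene cannot go below 0.1. The guidance genes, other lists, markers and tests were chosen with earlier results of these data known. Counts in every sample are given for genes past both thresholds, folds for those past the adjusted p and for the most abundant gene of each family. Coordinates are those of GENCODE M21 (GRCm38) and promoters those of RefSeq (GRCm38.p6). Alternatives were DESeq2 1.42.0, other scalings and filters, a replicate block, the fold tested in the model and each sample left out. Scripts were tested on simulated data.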

Additional observations from a re-analysis of the deposited data

How the results depend on the processing

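None of the 35 guidance genes called at the adjusted p reversed its direction under 12 alternative fits, whereas 7 of the 22 tested genes that were not called changed sign in at least 1 of them (*Efna2*, *Efna5*, *Epha7*, *Ntn1*, *Plxnb1*, *Plxnb3* and *Sema4a*). Over the called genes and these fits, 358 results kept their direction and threshold and 61 kept the direction and lost the threshold. When the fold change of 2 was tested in the model, 3 genes were higher (*Ntn4*, *Robo4* and *Sema6a*) and 3 lower (*Sema3b*, *Sema3c* and *Sema5b*). With 1 sample left out at a time, 13 to 24 guidance genes were higher at the adjusted p alone (22.4% to 42.1% of those tested). Lower guidance genes numbered 6 to 14 (10.3% to 24.6%). Over all tested genes, the numbers were 1315 to 3417 (8.42% to 22.1%) and 1325 to 3041 (8.48% to 19.6%). The cause was not tested. Of the 15 genes past both thresholds, *Sema4f*, *Ephb1*, *Robo3* and *Slit1* lost the call when some samples were left out, and *Ephb1* was not tested with a minimum mean of 1 CPM. The other 11 kept it in all 12 fits. Of the 20 genes called at the adjusted p alone, 7 kept that call in all 12 fits and 13 lost it in some, *Sema7a* in all but 2, *Plxnc1* in all but 5 and *Unc5c* in all but 7. With a minimum mean of 1 CPM, the median log2 fold change of the Robo family was 1.08 in place of 0.94 and that of the netrins 1.40 in place of -0.05, since *Robo2* and *Ntn3* drop out, and the Robo median ranged from 0.86 to 1.10 with samples left out. The Unc5 median was 0.046 in place of 0.57 without a filter, which adds *Unc5d*. Same-numbered samples did not deviate together (correlation across genes 0.088, -0.042 and 0.090 for numbers 1, 2 and 3), so the numbers were not taken as pairs. The fit with the replicate number as a block gave 9 and 6 genes past both thresholds and 23 and 12 at the adjusted p, with *Sema7a* lost (adjusted p = 0.0734) and *Sema4b* gained (adjusted p = 0.0309). The 9 genes that did not pass the low-count filter reached 13 counts at most in any sample, and nothing is said of their change.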
